A study of Mus musculus with 8 samples.

Results

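Collagen chains were taken as the genes whose annotated symbol has the form Col, type number, a, chain number. The array held 37 such genes, each with 1 probe, of 16502 genes with a symbol and 18138 probes in all. Of these genes 9 encode chains of the fibrillar types (types 1, 2, 3, 5 and 11), 6 encode the chains of the basement membrane collagen (type 4) and 22 encode chains of other types. RNA came from C2C12, a mouse myoblast line that BMP-2 diverts toward the osteoblast lineage, in 4 groups of 2 arrays each. Dynasore+BMP-2 cells received 40 µM dynasore, a small molecule that blocks the GTPase dynamin, and 30 nM BMP-2. Dynasore cells received 40 µM dynasore without ligand, DMSO+BMP-2 cells received the 0.05% DMSO vehicle with 30 nM BMP-2, and DMSO cells received the vehicle alone. All groups were starved of serum for 2 h, and dynasore or DMSO was then present from 2 h before the 6 h of stimulation. The comparisons ask how collagen transcripts differ with dynasore, with BMP-2, and with BMP-2 while dynamin is blocked.

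Collagens are secreted proteins built of chains that wind around each other into a helix. Fibrillar collagens form the load-bearing fibrils of bone, tendon, skin and the connective tissue around muscle, type 4 collagen forms the sheet on which muscle fibres and epithelia rest, and the other types link, coat or anchor these structures. Newly made chains are hydroxylated and folded in the endoplasmic reticulum, secreted as procollagen, trimmed and cross-linked outside the cell, and later cut by metalloproteinases or taken up again by endocytosis.

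The deposited values are intensities of a single colour, in arbitrary units, so levels are compared between arrays for 1 probe and never between probes. Values below 0 point to a subtracted background, but DMSO+BMP-2 replicate 2 and Dynasore+BMP-2 replicate 2 held none. An array's background limit was set from its own dim probes, as the upper 95% point of a normal curve around their mode. The dim probes of DMSO+BMP-2 replicate 2 lay around 242 and its limit at 258, those of Dynasore+BMP-2 replicate 2 lay around 45.3 with a limit of 62.0, and the other 6 limits lay between 17.2 and 33.6. An intensity of about 240 on DMSO+BMP-2 replicate 2 is thus no sign of expression. The replicates of DMSO+BMP-2 correlated at r = 0.835 over all deposited intensities, against 0.982 for Dynasore+BMP-2, 0.997 for Dynasore and 0.991 for DMSO. Log2 changes were fitted in limma after a further background model and quantile normalization, for the 10232 probes that passed the background limit on 2 or more of the 8 arrays. The threshold was an adjusted p (Benjamini-Hochberg, over all of these probes) under 0.05. The fit used 7 arrays with DMSO+BMP-2 replicate 2, and any comparison with DMSO+BMP-2 also had to reach the threshold with the same sign when replicate 1 took its place. The error given beside each log2 change is its standard error. The myoblast markers Des, which encodes desmin, and Chrna1, a subunit of the acetylcholine receptor, were above background on all 8 arrays and the muscle regulator Myod1 on 7, whereas Myf5 was above it on none. Markers of endothelial cells, adipocytes and epithelial cells and the leukocyte marker Ptprc were above background on no array.

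Of the 37 collagen genes 18 were tested, 7 fibrillar, 3 of type 4 and 8 of other types, and none of these passed through a single group. The 10 above background on all 8 arrays were Col3a1, Col5a1, Col4a1, Col4a2, Col4a5, Col6a1, Col7a1, Col16a1, Col17a1 and Col18a1. Another 5 were above background on 1 array only. Among them Col5a2, the partner of Col5a1 in type V collagen, had 301 on DMSO+BMP-2 replicate 2, and Col10a1, the collagen of hypertrophic cartilage, had 94.2 on DMSO+BMP-2 replicate 1. The other three were Col9a2, Col14a1 and Col28a1. The remaining 14 were above background on no array. These were the type 4 chains Col4a3, Col4a4 and Col4a6, the cartilage chains Col11a1, Col9a1 and Col9a3, and Col6a6, Col13a1, Col19a1, Col23a1, Col24a1, Col25a1, Col26a1 and Col27a1.

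Both chains of 1 collagen often lie next to each other in the genome. In the RefSeq annotation Col4a1 and Col4a2, Col6a1 and Col6a2, Col3a1 and Col5a2, Col4a3 and Col4a4, Col4a5 and Col4a6, and Col9a1 and Col19a1 were adjacent protein-coding genes, and the first pair is known to be transcribed in opposite directions from a shared start region. Promoter windows from RefSeq were on hand for 30 of the 37 genes and for 13 of the 14 that were lower in Dynasore+BMP-2 than in DMSO. The 250 bases before the transcription start were searched on both strands for 4 motifs. A gene counted when any of its windows held the motif. The comparison genes were not limited to tested genes, and the shares among tested genes and among the other collagens were not counted. The GC box GGGCGG, the letters bound by Sp1-type factors, was found in 9 of these 13 genes (69.2%), against 35.4% of 27025 genes. The CCAAT box, written CCAAT, was also found in 9 of 13 (69.2%), against 37.5% of all. TATAAA was present in 2 of 13 (15.4%), against 14.3%, and GGCGCC, whose letters can overlap a GC box, in 3 of 13 (23.1%), against 10.8%. A match describes the letters only and is no evidence of a bound site. The windows of 3 chains that were lower under dynasore are shown, 5′ to 3′ on the strand of the gene, to let a promoter with both boxes be set beside one with neither. Capitals mark the GC box and the CCAAT box in either orientation. The Col1a2 window (GRCm38.p6, chr6:4505368-4505617, plus strand) holds 2 GC boxes and 1 CCAAT box, the Col18a1 window (chr10:77166531-77166780, minus strand) holds 3 and 1, and the Col6a1 window (chr10:76726045-76726294, minus strand) holds neither, with stretches rich in C and T before the start.
Col1a2: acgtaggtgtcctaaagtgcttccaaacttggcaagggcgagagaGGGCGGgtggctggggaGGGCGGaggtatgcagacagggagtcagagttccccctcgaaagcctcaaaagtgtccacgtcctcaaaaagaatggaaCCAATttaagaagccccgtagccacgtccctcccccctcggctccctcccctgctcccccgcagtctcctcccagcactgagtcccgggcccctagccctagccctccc
Col18a1: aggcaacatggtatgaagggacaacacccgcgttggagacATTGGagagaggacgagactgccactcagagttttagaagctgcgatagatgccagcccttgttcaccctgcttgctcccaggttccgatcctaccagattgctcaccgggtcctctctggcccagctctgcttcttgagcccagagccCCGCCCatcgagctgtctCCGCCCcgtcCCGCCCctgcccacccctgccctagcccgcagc
Col6a1: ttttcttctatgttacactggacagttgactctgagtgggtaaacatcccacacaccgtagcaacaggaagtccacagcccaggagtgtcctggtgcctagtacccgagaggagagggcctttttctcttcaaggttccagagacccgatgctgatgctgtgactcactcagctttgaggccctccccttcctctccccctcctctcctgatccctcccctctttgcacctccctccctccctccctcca

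Under dynasore alone collagen transcripts were lower. In Dynasore against DMSO 12 of the 18 tested genes were lower and 0 were higher, beside 19.5% of all tested probes lower and 18% higher. The median log2 change of the collagens was -0.56, against -0.003 over all tested probes. By class 4 of 7 fibrillar chains, 2 of 3 type 4 chains and 6 of 8 chains of other types were lower, with medians of -0.41, -0.55 and -0.75. All 12 were also among the 14 genes that were lower in Dynasore+BMP-2 against DMSO, where 0 were higher, beside 19% of all tested probes lower and 19.6% higher. There the median was -0.68, against -0.01 over all tested probes, and 5 of 7 fibrillar, all 3 type 4 and 6 of 8 other chains were lower. The genes added by Dynasore+BMP-2 were Col3a1 and Col4a2. Both comparisons share the DMSO arrays, so they are not independent of each other. In bulk RNA, fewer cells that express a gene and less RNA per cell cannot be told apart.

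**Figure D1:**
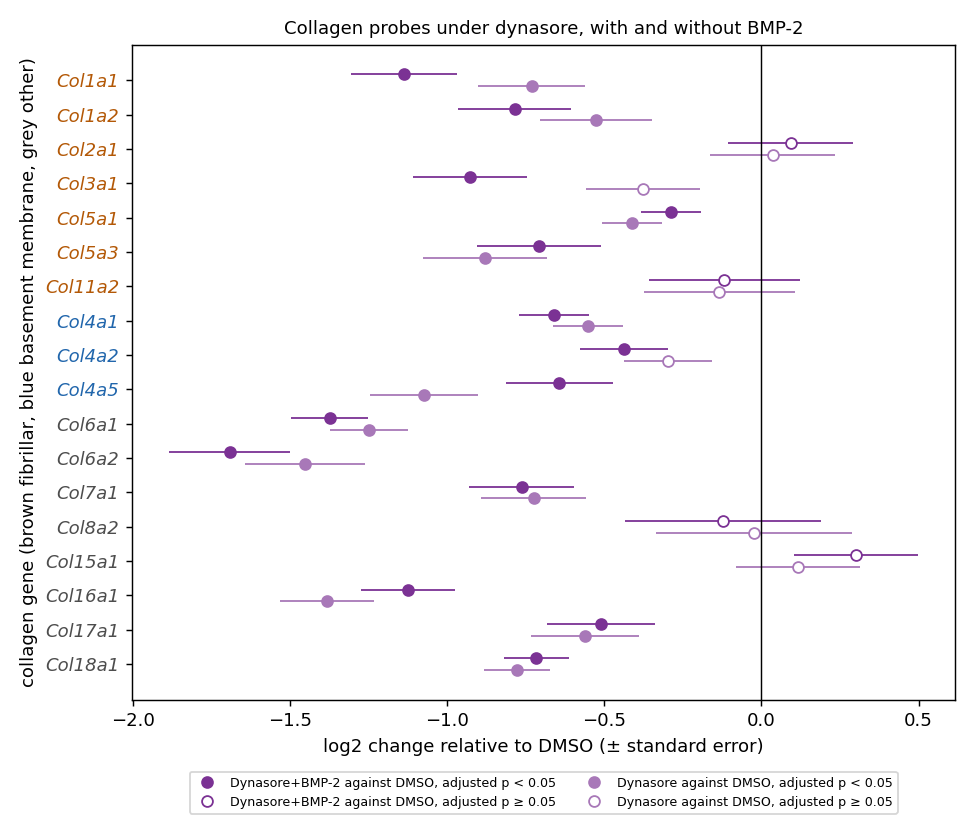
Log2 change (horizontal axis) of each tested collagen probe (1 row per gene) in Dynasore+BMP-2 against DMSO (dark) and in Dynasore against DMSO (light), with bars of 1 standard error and filled points for adjusted p under 0.05. The points of 12 genes are filled and left of 0 in both comparisons, and Col6a2 lies farthest left at -1.69 and -1.45.

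The type VI chains, which form beaded microfibrils around muscle cells, had the largest falls in Dynasore+BMP-2. Col6a1 had 1366 and 1249 in Dynasore+BMP-2, 1232 and 1541 in Dynasore, 3420.5 and 1864 in DMSO+BMP-2 and 3549 and 3459 in DMSO. All 4 arrays with dynasore were below all 4 without it. Its log2 change was -1.37 ± 0.12, adjusted p = 1.14e-05 in Dynasore+BMP-2 and -1.25 ± 0.12, adjusted p = 2.46e-05 in Dynasore. Col6a2, the neighbouring gene and partner chain, had 225 and 172 in Dynasore+BMP-2, 211 and 252 in Dynasore and 638 and 822 in DMSO. In DMSO+BMP-2 it had 1062 on replicate 1 and 248, not above background, on replicate 2. The dynasore arrays did not overlap those of DMSO, and the log2 change was -1.69 ± 0.19, adjusted p = 5.91e-05 in Dynasore+BMP-2 and -1.45 ± 0.19, adjusted p = 0.000177 in Dynasore.

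Among the chains of other types, Col16a1, a chain that associates with fibrils and microfibrils, had 258 and 339 in Dynasore+BMP-2, 230.2 and 249.6 in Dynasore and 725 and 699 in DMSO. No dynasore array reached the DMSO values, and the log2 change was -1.12 ± 0.15, adjusted p = 0.000173 in Dynasore+BMP-2 and -1.38 ± 0.15, adjusted p = 4.48e-05 in Dynasore. Col18a1, a basement membrane collagen whose end fragment is endostatin, had 2014 and 1991 in Dynasore+BMP-2, 1830.2 and 1826 in Dynasore, 3664 and 4183 in DMSO+BMP-2 and 3563 and 3191 in DMSO. The 4 dynasore arrays lay close together and below every array without dynasore, with log2 changes of -0.72 ± 0.10, adjusted p = 0.000324 in Dynasore+BMP-2 and -0.78 ± 0.10, adjusted p = 0.000193 in Dynasore. Col7a1, the chain of the anchoring fibrils of skin, had 59.0 and 85.5 in Dynasore+BMP-2, 69.3 and 54.4 in Dynasore and 124 and 138 in DMSO, and its log2 change was -0.76 ± 0.17, adjusted p = 0.00428 in Dynasore+BMP-2 and -0.72 ± 0.17, adjusted p = 0.00596 in Dynasore. Col17a1, a transmembrane collagen of hemidesmosomes, had 53.6 and 69.8 in Dynasore+BMP-2, 40.7 and 46.5 in Dynasore and 77.8 and 79.8 in DMSO, with smaller log2 changes of -0.51 ± 0.17, adjusted p = 0.0369 in Dynasore+BMP-2 and -0.56 ± 0.17, adjusted p = 0.0251 in Dynasore. Col8a2, a network-forming chain of the corneal endothelium, and Col15a1, a relative of Col18a1, were close to their background limits and did not pass the test. Their log2 changes were -0.12 and 0.30 in Dynasore+BMP-2 and -0.02 and 0.12 in Dynasore.

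**Figure D2:**
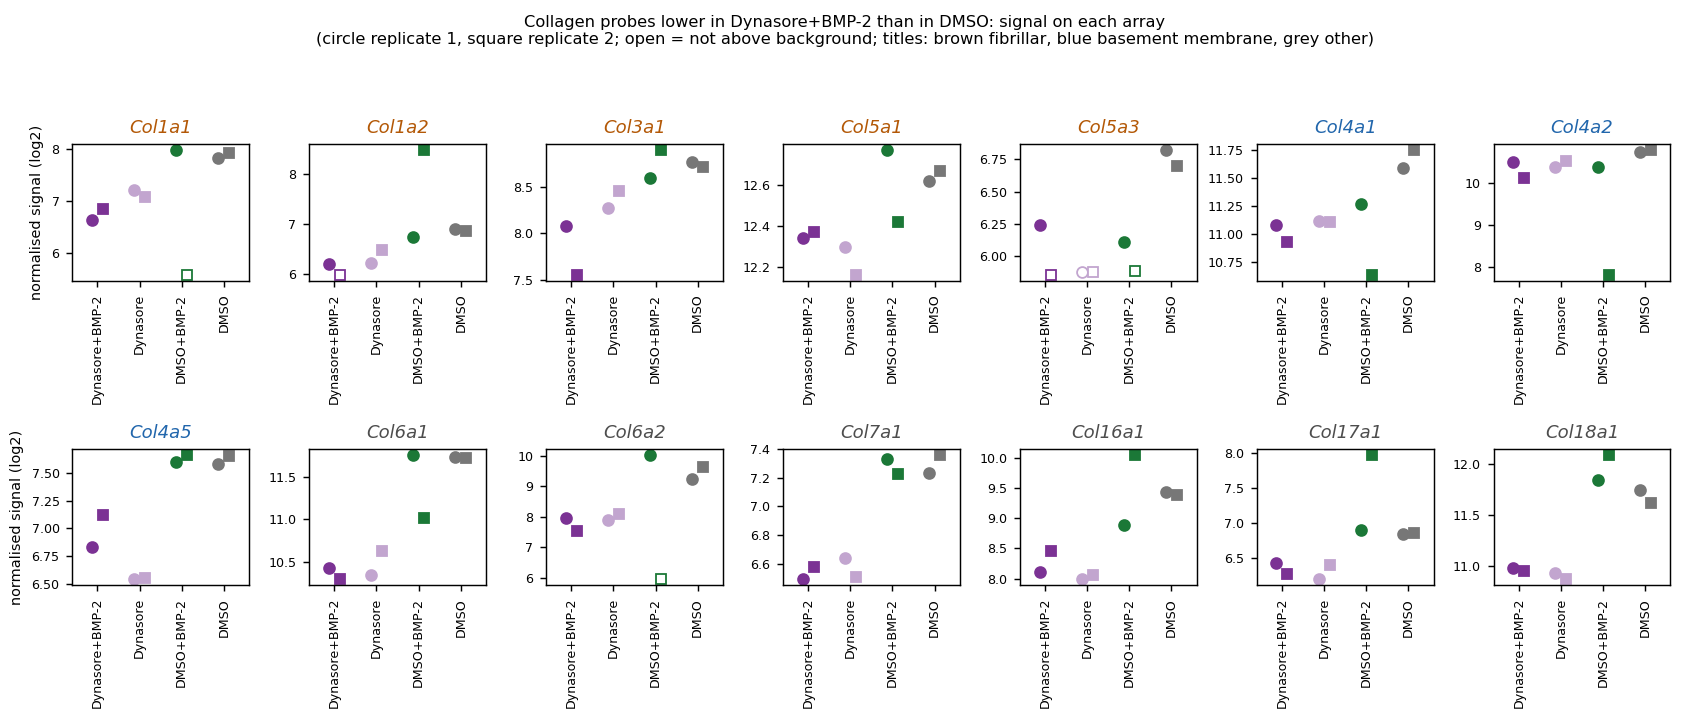
Normalised log2 signal (vertical axis, 1 scale per panel) of the 14 collagen probes lower in Dynasore+BMP-2 than in DMSO, with a circle for replicate 1 and a square for replicate 2 of each group and open symbols where the probe was not above background. In every panel both Dynasore+BMP-2 arrays lie below both DMSO arrays, while the DMSO+BMP-2 pair lies far apart for Col1a1, Col4a2 and Col6a2.

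The fibrillar chains that form bone and tendon matrix were also lower. Col1a1, the principal chain of type I collagen, had 69.9 and 103 in Dynasore+BMP-2, 123 and 105 in Dynasore and 217 and 232 in DMSO. Neither dynasore group overlapped DMSO, and the log2 change was -1.14 ± 0.17, adjusted p = 0.000383 in Dynasore+BMP-2 and -0.73 ± 0.17, adjusted p = 0.00621 in Dynasore. Col1a2, its partner chain, had 40.2 and 58.5 in Dynasore+BMP-2, 42.6 and 53.0 in Dynasore and 83.9 and 80.1 in DMSO, and the second Dynasore+BMP-2 value was just under that array's limit. Its log2 changes were -0.79 ± 0.18, adjusted p = 0.00536 in Dynasore+BMP-2 and -0.53 ± 0.18, adjusted p = 0.0394 in Dynasore. Col3a1, the chain of type III collagen of skin, vessels and the sheath of muscle fibres, had 249.6 and 173 in Dynasore+BMP-2, 282 and 334 in Dynasore, 387 and 429 in DMSO+BMP-2 and 459.7 and 429 in DMSO. It passed the test in Dynasore+BMP-2 (-0.93 ± 0.18, adjusted p = 0.00222) and not in Dynasore (-0.38 ± 0.18, adjusted p = 0.135). The difference between these groups, tested directly, was -0.55 ± 0.18, adjusted p = 0.307, and so did not pass the threshold either.

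Type V chains start the assembly of type I fibrils, and Col5a1 had the smallest change of the genes that passed in either comparison. It had 5196 and 5321 in Dynasore+BMP-2, 4768 and 4582 in Dynasore, 6897 and 5176 in DMSO+BMP-2 and 6673 and 6817 in DMSO. Its log2 change was -0.29 ± 0.10, adjusted p = 0.0367 in Dynasore+BMP-2 and -0.41 ± 0.10, adjusted p = 0.00655 in Dynasore, with no overlap with the DMSO arrays. Col5a3 had 75.7 and 65.8 in DMSO, was above background on 1 of the Dynasore+BMP-2 arrays, and had 25.2 and 19.7 in Dynasore, not above background on either array. It was at least 1.60-fold lower in Dynasore than in DMSO (adjusted p = 0.00505), counting the dim arrays at the lowest signal that was above background, and its log2 change in Dynasore+BMP-2 was -0.71 ± 0.20, adjusted p = 0.0158. The cartilage chains Col2a1 and Col11a2 did not pass the test, with log2 changes of 0.09 and -0.12 in Dynasore+BMP-2 and 0.04 and -0.13 in Dynasore.

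Of the basement membrane chains, Col4a1 and Col4a2 are the near ubiquitous pair. Col4a1 had 2168 and 1973 in Dynasore+BMP-2, 2129 and 2161 in Dynasore, 2462 and 1416 in DMSO+BMP-2 and 3206 and 3506 in DMSO. Its DMSO arrays were higher than the other 6, and the log2 change was -0.66 ± 0.11, adjusted p = 0.000839 in Dynasore+BMP-2 and -0.55 ± 0.11, adjusted p = 0.00267 in Dynasore. Col4a2 had 1437 and 1095 in Dynasore+BMP-2, 1258 and 1419 in Dynasore and 1799 and 1831 in DMSO, and its log2 changes were -0.44 ± 0.14, adjusted p = 0.0307 in Dynasore+BMP-2 and -0.30 ± 0.14, adjusted p = 0.127 in Dynasore, where it did not pass. The difference between the pair's changes was not tested. Col4a5, a chain of more restricted membranes such as that of the kidney, had 84.8 and 125 in Dynasore+BMP-2, 62.5 and 58.1 in Dynasore and 173 and 184 in DMSO. It was the type 4 chain with the largest fall in Dynasore, at -1.07 ± 0.17, adjusted p = 0.000616, and its log2 change in Dynasore+BMP-2 was -0.64 ± 0.17, adjusted p = 0.0125. Its partner Col4a6 was not above background on any array.

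When set out by array, the fall was spread over the classes. The median difference from the DMSO mean of the 7 fibrillar chains was -0.51 and -0.89 in Dynasore+BMP-2, -0.47 and -0.40 in Dynasore, and 0.10 and -0.09 in DMSO+BMP-2 on the log2 scale. For the 3 type 4 chains it was -0.59 and -0.63 in Dynasore+BMP-2, -0.54 and -0.56 in Dynasore, and -0.37 and -1.02 in DMSO+BMP-2. The 8 chains of other types had -0.75 and -0.72 in Dynasore+BMP-2, -0.70 and -0.80 in Dynasore, and 0.11 and 0.13 in DMSO+BMP-2. The DMSO+BMP-2 medians hide chains on both sides of DMSO. On replicate 1 of that group 3 of 7 fibrillar, 3 of 3 type 4 and 1 of 8 other chains were below the DMSO mean, and on replicate 2 these counts were 4, 2 and 4.

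The myoblast markers moved with these falls. The summed intensity of the 5 measured markers of that list (Myod1, Myf5, Des, Chrna1 and Myog) lay between 5152 and 5628 in Dynasore+BMP-2, 5548 and 6012 in Dynasore, and 10724 and 11139 in DMSO. In DMSO+BMP-2 it was 9156 on replicate 1, below DMSO, and 13427 on replicate 2, above DMSO. Of the 4 tested markers all 4 were lower in Dynasore+BMP-2 and 3 in Dynasore, beside 19% and 19.5% of all tested probes lower. Myod1 had 80.9 and 75.4 in Dynasore+BMP-2, 41.8 and 34.4 in Dynasore and 242 and 234 in DMSO. In DMSO+BMP-2 it had 577 on replicate 1 and 241, not above background, on replicate 2. The part of these markers in the collagen result was not tested.

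With both DMSO+BMP-2 arrays in the fit limma called 0 of 18 collagens in either comparison, beside 1.58% of all tested probes lower and 1.97% higher in Dynasore+BMP-2 and 1.51% lower and 1.65% higher in Dynasore, and 7 were lower in each at an unadjusted p below 0.05. That pair then adds its disagreement to the pooled spread. An alternative chosen after seeing the data left both of its arrays out before normalization. It gave 14 of 17 lower in Dynasore+BMP-2 and 12 of 17 in Dynasore. In the 7-array fit the lone DMSO+BMP-2 array adds nothing to the spread, so this alternative is close to that fit and no separate check. The shares of all tested probes at that unadjusted p and without that pair were not counted. The count in Dynasore+BMP-2 was 9 without DMSO replicate 1 and 8 without DMSO replicate 2, and in Dynasore it was 7 without DMSO replicate 2 or without Dynasore replicate 2.

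No collagen passed the test of BMP-2 under dynasore. In Dynasore+BMP-2 against Dynasore 0 of the 18 collagens were called in limma, beside 0.215% of all tested probes lower and 0.655% higher. At an unadjusted p under 0.05 Col1a1 (-0.41 ± 0.17) and Col3a1 (-0.55 ± 0.18) were lower and Col4a5 (0.43 ± 0.17) was higher on the log2 scale. The 18 log2 changes ran between -0.55 and 0.43 with a median of -0.01. Without Dynasore+BMP-2 replicate 1 the count was 3, with Col4a5 and Col16a1 higher and Col3a1 lower.

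Without dynasore no collagen passed the test of BMP-2 with both DMSO+BMP-2 arrays. In DMSO+BMP-2 against DMSO 0 of 18 genes were called in limma, beside 1.42% of all tested probes lower and 1.37% higher, and Col4a1 and Col5a3 were lower at an unadjusted p below 0.05 with either array, although Col5a3 was not above background on replicate 2. Taken alone, replicate 2 gave 4 higher and 6 lower, beside 41.4% of all tested probes higher and 28.1% lower, and replicate 1 gave 0, beside 2.03% higher and 2.59% lower. The arrays had fitted changes of the same sign for 7 of the 18 genes, dim values included. Col6a2 had 1062 on replicate 1, with a log2 change of 0.59, and was not above background on replicate 2, where it was at least 6.93-fold lower than in DMSO. Col4a2 had 1360.2 and 290.1, with log2 changes of -0.37 on replicate 1 and -2.92 on replicate 2. Col1a1, at 237 and 239, was likewise not above background on replicate 2 alone, while Col1a2, at 71.4 and 354, had -0.15 on replicate 1 and 1.58 on replicate 2. On replicate 2 the partner chains of types I, IV and VI thus lay farther apart in log2 change than on replicate 1, where Col6a1 had 0.03, against -0.72 on replicate 2. Col4a1 was below DMSO on both arrays, with log2 changes of -0.40 on replicate 1 and -1.02 on replicate 2. Col5a3 had -0.65 on replicate 1 and, at 246 on replicate 2, only a bound of at least 1.09-fold lower than in DMSO. Neither passed with replicate 1 (adjusted p = 0.18 and 0.223). Without Dynasore+BMP-2 replicate 1, or without replicate 2 of that group, 1 gene was called, Col4a1.

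**Figure D3:**
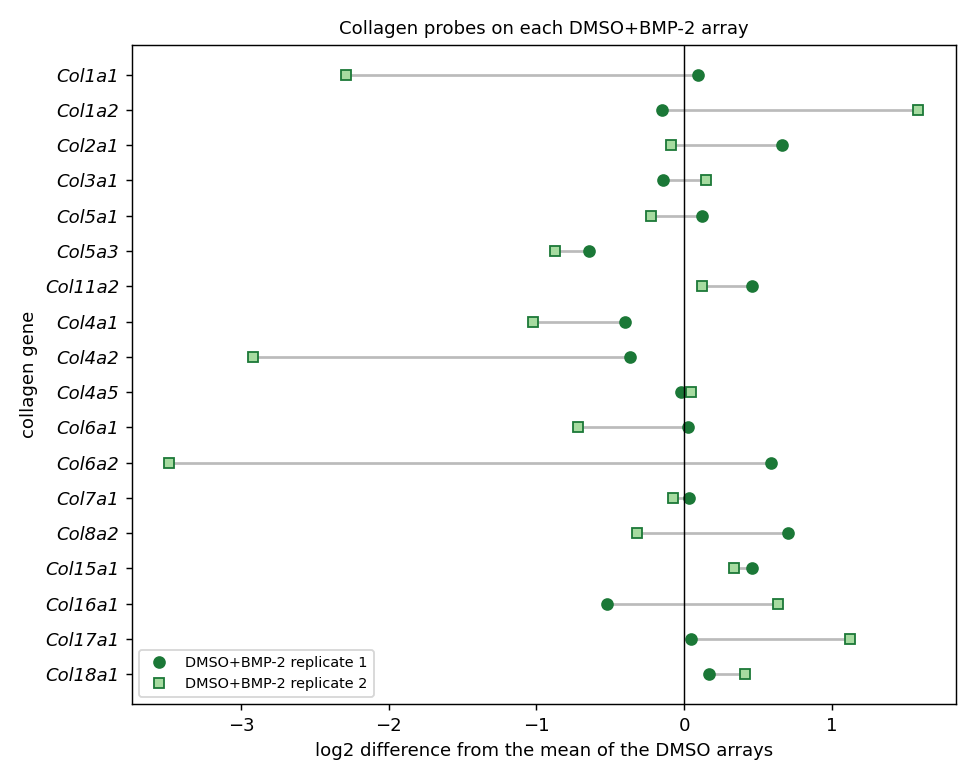
Log2 difference (horizontal axis) of each tested collagen probe (1 row per gene) on DMSO+BMP-2 replicate 1 (circles) and replicate 2 (squares) from the mean of the DMSO arrays, with a grey line joining the pair. Col6a2 lies at 0.59 on replicate 1 and was not above background on replicate 2, where its square at -3.48 is a fitted value and the bound is at least 6.93-fold lower, while Col4a5 and Col7a1 lie close together.

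Some of the cartilage chains gave a signal on DMSO+BMP-2 replicate 1. Col2a1, the principal cartilage collagen, had 85.1 there, against 25.8 and 32.2 in DMSO, and Col11a2, its minor partner, had 51.9, against 26.9 and 13.5 in DMSO. Col10a1 had 94.2, against -13.8 and -11.4 in DMSO, and Col9a2 had 32.7, over a limit of 24.6. All 4 were above background on that array and below the limit of 258 on replicate 2, so these values have no replicate. Col9a1, Col9a3 and Col11a1, at 18.6, 4.51 and 3.49, were not above background on replicate 1 either. Dynasore+BMP-2 gave 48.9 and 69.0 for Col2a1 and 13.4 and 28.6, not above background, for Col10a1. Sox9, the chondrocyte regulator, had 101 and 125 in Dynasore+BMP-2, 289 and 321 in Dynasore, 759 on DMSO+BMP-2 replicate 1, 229, not above background, on replicate 2, and 162 and 121 in DMSO. It was higher in Dynasore against DMSO (log2 change 0.99 ± 0.17, adjusted p = 0.00106) and lower in Dynasore+BMP-2 against Dynasore (-1.30 ± 0.17, adjusted p = 0.00389), and did not pass in Dynasore+BMP-2 against DMSO (-0.31 ± 0.17, adjusted p = 0.189). The cartilage matrix genes Acan, Matn1 and Matn3 were above background on no array. Comp, another cartilage matrix gene, went the other way on DMSO+BMP-2 replicate 1, where it had -11.2, not above background, against 29.3 and 27.5 in DMSO, both above it. The summed intensity of these 5 markers lay between 152 and 306 in Dynasore+BMP-2, 344 and 349.8 in Dynasore, and 104 and 182 in DMSO, and was 755 on DMSO+BMP-2 replicate 1. That 755 was close to the 759 of Sox9 alone. The sums also hold the background of each probe, around 13.5 on Dynasore+BMP-2 replicate 1 and 45.3 on replicate 2. The part of these markers in the collagen values was not tested.

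In cells given BMP-2, some collagen transcripts were lower with dynasore against both DMSO+BMP-2 arrays. Dynasore+BMP-2 against DMSO+BMP-2 gave 6 lower genes and 0 higher, beside 7.89% of all tested probes lower and 7.48% higher. They were Col16a1, Col18a1, Col3a1, Col7a1, Col4a5 and Col6a1. With replicate 2 their log2 changes were -1.76, -1.13, -1.08, -0.69, -0.69 and -0.65. With replicate 1 they were -0.60, -0.89, -0.79, -0.80, -0.62 and -1.40. Col18a1 had the tightest values, at -1.13 ± 0.13, adjusted p = 2.26e-05 with replicate 2 and -0.89 ± 0.13, adjusted p = 0.000606 with replicate 1. It alone was also called with all 8 arrays (adjusted p = 0.0324), beside 1.83% of all tested probes lower and 1.77% higher. Against replicate 1 all 18 collagens were below 0 with a median of -0.61, beside -0.008 over all tested probes. Against replicate 2 11 were below 0 with a median of -0.15, close to the -0.12 over all tested probes. Replicate 2 alone gave 4 higher and 8 lower, beside 28.8% of all tested probes higher and 38.4% lower, and replicate 1 alone gave 0 higher and 9 lower, beside 15.5% and 13.5%. The count was 3 without DMSO replicate 1 or without DMSO replicate 2, and scaling the arrays to equal medians left 2 and turned the sign of Col4a5 with replicate 2, to 0.16.

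The test for a BMP-2 response that differed with dynasore was passed by no collagen with both DMSO+BMP-2 arrays. The interaction, which is the change with BMP-2 under dynasore minus that under DMSO, was called in limma for 0 of 18, beside 0.215% of all tested probes lower and 0.401% higher, and Col5a3, not above background on DMSO+BMP-2 replicate 2 or in Dynasore, was higher at an unadjusted p below 0.05. With replicate 2 alone 6 were higher and 2 lower, beside 23.2% and 32.9% of all tested probes, and with replicate 1 alone 0, beside 0.733% higher and 0.342% lower. Without Dynasore+BMP-2 replicate 1 Col3a1 was called, as lower.

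Genes that modify and fold collagen in the endoplasmic reticulum held more higher than lower calls under dynasore, and the others did not pass the test. Among the 17 that were tested, 8 were higher and 0 lower in Dynasore against DMSO, beside 18% and 19.5% of all tested probes, with a median log2 change of 0.36 against -0.003 over all tested probes. In Dynasore+BMP-2 against DMSO 7 were higher and 1, P3h4, was lower, beside 19.6% and 19% of all tested probes. P4ha2, a catalytic subunit of the prolyl hydroxylase that stabilizes the collagen helix, had 2827 and 3160.1 in Dynasore+BMP-2, 2362 and 2652 in Dynasore, 362 and 368 in DMSO+BMP-2 and 359.8 and 341 in DMSO. All 4 dynasore arrays were far above all 4 others, and the log2 change was 3.09 ± 0.12, adjusted p = 2.33e-08 in Dynasore+BMP-2 and 2.88 ± 0.12, adjusted p = 4.15e-08 in Dynasore. Its call stood with all 8 arrays (adjusted p = 0.00311 in Dynasore). Plod2 and Plod1, lysyl hydroxylases that prepare the sites of cross-links, rose by 1.83 ± 0.20 and 1.26 ± 0.15 in Dynasore on the log2 scale (adjusted p = 0.000448 and 8.10e-05). Serpinh1, the collagen chaperone HSP47, had 1449 and 1746 in Dynasore+BMP-2, 1532 and 1646 in Dynasore and 942 and 694 in DMSO, with log2 changes of 1.04 ± 0.15, adjusted p = 0.000315 in Dynasore+BMP-2 and 1.11 ± 0.15, adjusted p = 0.000219 in Dynasore. P4ha1, another catalytic subunit, rose by 1.23 ± 0.15 in Dynasore (adjusted p = 9.60e-05). The third, P4ha3, did not pass, with log2 changes of -0.90 ± 0.48 in Dynasore+BMP-2 and -0.47 ± 0.48 in Dynasore. Against DMSO+BMP-2, 5 of the list (P4ha2, P4hb, Plod1, Plod2 and Serpinh1) were higher in Dynasore+BMP-2 and P3h2 was lower.

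**Figure D4:**
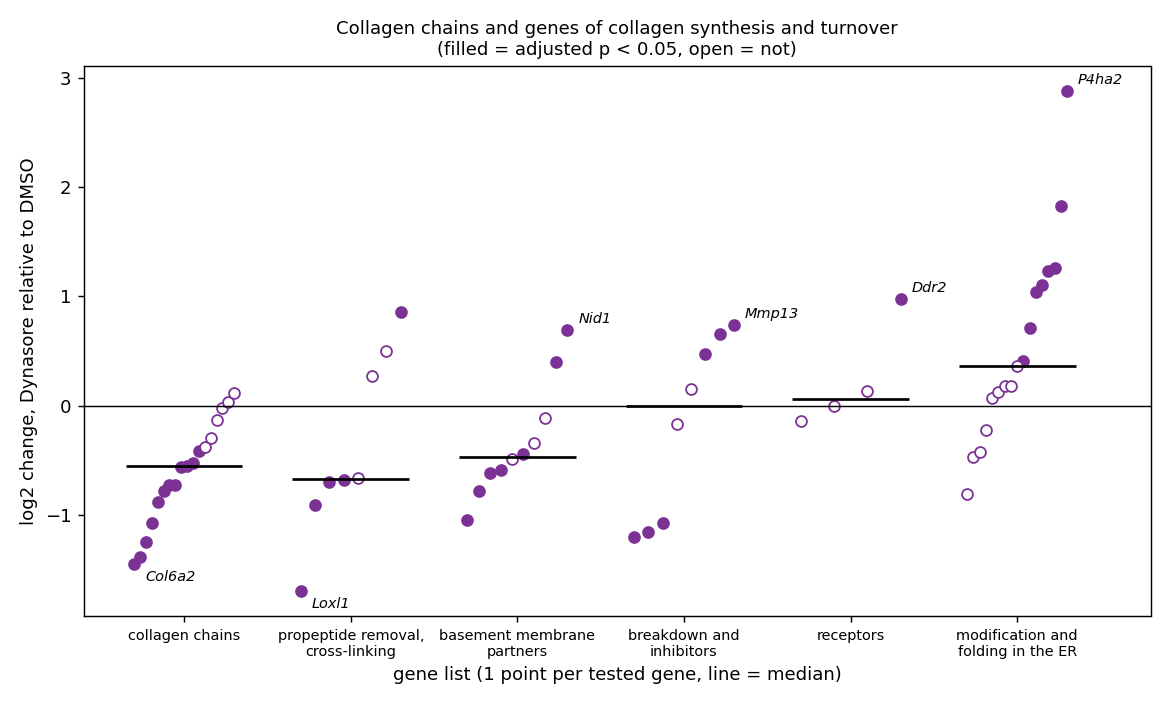
Log2 change in Dynasore against DMSO (vertical axis) of every tested gene of the collagen chains and of 5 lists of genes that make, cross-link, cut or bind collagen (horizontal axis), with filled points for adjusted p under 0.05 and a line at each list's median. The collagen chains have a median of -0.56 and the list of modification and folding in the endoplasmic reticulum one of 0.36, with P4ha2 at 2.88.

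Genes that act on collagen outside the cell were called in both directions. Of 8 tested genes of propeptide removal and cross-linking, 4 were lower and 1 higher in both dynasore groups against DMSO, beside 19% of all tested probes lower and 19.6% higher in Dynasore+BMP-2 and 19.5% lower and 18% higher in Dynasore. Loxl1, a lysyl oxidase that cross-links matrix fibres, had 2019.8 and 2621 in Dynasore+BMP-2, 2113 and 2119 in Dynasore, 6508 and 9408 in DMSO+BMP-2 and 7384 and 7462 in DMSO. Its log2 change was -1.64 ± 0.12, adjusted p = 2.74e-06 in Dynasore+BMP-2 and -1.70 ± 0.12, adjusted p = 2.41e-06 in Dynasore, and the call stood with all 8 arrays (adjusted p = 0.0245 in Dynasore). Bmp1, which despite its name is the proteinase that removes the C-terminal propeptide of procollagen, fell by 0.91 ± 0.12, its enhancer Pcolce fell by 0.70 ± 0.15 and Lox fell by 0.68 ± 0.11 in Dynasore (adjusted p = 0.000218, 0.00523 and 0.000857). Loxl2 was the member that rose, by 0.85 ± 0.25 (adjusted p = 0.0205).

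Of 8 tested genes of collagen breakdown and its inhibitors, 3 were lower and 3 higher in both dynasore groups, beside the same shares of all tested probes. The proteinases Mmp14 and Mmp2 and the inhibitor Timp2 were lower in Dynasore, with log2 changes of -1.20 ± 0.10, adjusted p = 9.30e-06, -1.16 ± 0.10, adjusted p = 9.20e-06 and -1.07 ± 0.09, adjusted p = 8.05e-06. Mmp13, a collagenase, had 54.7 and 89.2 in Dynasore+BMP-2, 53.5 and 53.6 in Dynasore and 5.29 and 4.31 in DMSO, and was above background on the dynasore arrays only. It was at least 1.29-fold higher in Dynasore than in DMSO (adjusted p = 0.00948). Mmp13 passed the background filter through the dynasore groups alone, so its p and its place among the 3 higher are no separate support. Mmp2 was also lower and Timp1 higher in DMSO+BMP-2 against DMSO with either array, at -1.75 and 1.38 with replicate 2 and -0.63 and 0.57 with replicate 1. Among 4 tested collagen receptors Ddr2, a receptor tyrosine kinase for fibrillar collagen, was higher in Dynasore by 0.97 ± 0.18 (adjusted p = 0.00139), beside 18% of all tested probes. Ddr1 and Ddr2 were higher in Dynasore+BMP-2 against DMSO, beside 19.6% of all tested probes.

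Of the 10 tested partners of type 4 collagen in basement membranes, 5 were lower and 2 higher in Dynasore against DMSO, beside 19.5% and 18% of all tested probes, and 7 were lower and 1 higher in Dynasore+BMP-2, beside 19% and 19.6%. Nid2, a nidogen that links type 4 collagen to laminin, had 909 and 901 in Dynasore+BMP-2, 890.0 and 1081 in Dynasore, 914 and 370.1 in DMSO+BMP-2 and 1998 and 2394 in DMSO. It was lower than in DMSO in every group, with log2 changes of -1.18 ± 0.14, adjusted p = 7.29e-05 in Dynasore+BMP-2, -1.04 ± 0.14, adjusted p = 0.00018 in Dynasore, and -2.44 with replicate 2 and -1.20 with replicate 1 in DMSO+BMP-2. Its relative Nid1 was higher, by 0.66 ± 0.20 in Dynasore+BMP-2 and 0.69 ± 0.20 in Dynasore (adjusted p = 0.0366 and 0.031). In Dynasore Hspg2, the proteoglycan perlecan, had a log2 change of -0.78 ± 0.16, adjusted p = 0.00311, and Pxdn, the peroxidase that cross-links type 4 collagen, one of -0.62 ± 0.19, adjusted p = 0.023. With all 8 arrays the calls of these 5 lists in both dynasore groups against DMSO came down to P4ha2 and Loxl1, with Bmp1 added in Dynasore+BMP-2.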

How the data were processed

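RNA of C2C12 cells in 4 groups of 2 replicates was hybridised to Illumina mouse BeadChips, 1 array per replicate. The deposited values are linear intensities (array medians 20.9 to 250.7) that the authors normalised in BeadStudio 3.0 by its rank invariant method. Some lie below 0, which points to a subtracted background whose method is not given in the sources used here. A second deposited table with 8 numbered signal columns and detection p-values was not used, since no source ties a number to a sample. The study calls its replicates biological duplicates, and 2 arrays per group limit the precision.

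Intensities were corrected by normexp (offset 16), quantile normalised, put on the log2 scale and fitted in limma 3.58.1 under R 4.3.3 with lmFit and eBayes (trend, robust), leaving 3 residual degrees of freedom with 7 arrays. The methods of the study leave 1 DMSO+BMP-2 array out of the significance test without naming it. Benjamini-Hochberg adjustment ran over 10232 probes. On simulated data 200 probes changed by 1 on the log2 scale were found in 49% (Dynasore against DMSO) and 48% (Dynasore+BMP-2 against DMSO), with 5 and 6 false calls. When changed by 2 they were found in 94% in both comparisons, with 9 and 5 false calls. Far fewer probes were changed in the simulation than were called in the data, so these shares do not carry over to the data. Gene symbols are those of the array's annotation, in which 1252 probes have none.

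The members and gene lists were chosen with earlier results of these data known. Values per array are given for members called in a comparison (up to 6 by size), their partner chains and the 3 with the highest signal, and for up to 4 called genes per list and comparison; other genes are named with counts. Alternatives changed the arrays used, the background model, scaling, filter, variance model and test, added a replicate block, or left out 1 array.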

Additional observations from a re-analysis of the deposited data

How the results depend on the processing

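In limma with all 8 arrays, collagen calls numbered 0 in Dynasore against DMSO, 0 in Dynasore+BMP-2 against DMSO and 1 in Dynasore+BMP-2 against DMSO+BMP-2. With both DMSO+BMP-2 arrays left out before normalization, an alternative chosen after seeing the data, they were 12, 14 and, in Dynasore+BMP-2 against Dynasore, 0. DMSO+BMP-2 replicate 2 alone gave 10 calls in DMSO+BMP-2 against DMSO, 12 in Dynasore+BMP-2 against DMSO+BMP-2 and 8 in the interaction. The methods' one-way test, 1 p per probe over all 4 groups, at an unadjusted p and a 1.4-fold limit gave 2 higher and 11 lower in Dynasore+BMP-2 against DMSO, 2 higher and 12 lower in Dynasore against DMSO and 0 in DMSO+BMP-2 against DMSO. The 2 higher genes were Col2a1 and Col15a1 in both. Their p is the same for both comparisons and takes in DMSO+BMP-2 replicate 2, where they had 251 and 252, not above background. It is thus no test of dynasore against DMSO, and neither gene passed in limma. The same test with Benjamini-Hochberg adjustment and a 1.4-fold limit gave 9 in Dynasore+BMP-2 against DMSO, 10 in Dynasore against DMSO and 0 in DMSO+BMP-2 against DMSO. The shares of all tested probes called by the one-way test were not counted, so these counts cannot be set against them. Equal medians gave 2 in Dynasore+BMP-2 against DMSO+BMP-2, where Col4a5 turned to 0.16 with DMSO+BMP-2 replicate 2, and the cause was not tested. Leaving out 1 array gave 7 to 14 calls in Dynasore against DMSO, 8 to 13 in Dynasore+BMP-2 against DMSO, 0 to 1 in DMSO+BMP-2 against DMSO, 3 to 7 in Dynasore+BMP-2 against DMSO+BMP-2, 0 to 3 in Dynasore+BMP-2 against Dynasore and 0 to 1 in the interaction. On the deposited scale with a floor of 16 the median of all tested probes moved. It was 0.17 in Dynasore+BMP-2 against DMSO and 0.13 in Dynasore+BMP-2 against Dynasore, and no collagen call in either was higher. With DMSO+BMP-2 replicate 2 it moved further, to 0.82 in DMSO+BMP-2 against DMSO, -0.89 in Dynasore+BMP-2 against DMSO+BMP-2 and -0.71 in the interaction. With replicate 1 these last medians were -0.0005, 0.15 and 0.14. Every other count of calls stayed within 1.5 times its value.

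Differences between replicates correlated at 0.50 between DMSO+BMP-2 and Dynasore+BMP-2, and at -0.28 to 0.003 between the other pairs of groups. The replicate numbers thus did not pair the samples across all groups. What DMSO+BMP-2 and Dynasore+BMP-2 share was not tested. With the replicate number as a block the calls were 11 in Dynasore against DMSO, 12 in Dynasore+BMP-2 against DMSO, 4 in Dynasore+BMP-2 against DMSO+BMP-2 and 0 in the others.

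Members near background, such as Col2a1, Col8a2, Col11a2 and Col15a1, cannot be read below their limits, and fitted changes of dim probes are smaller than their true size because of the offset.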
